A study of Homo sapiens with 12 samples.

Results

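The RNA of LNCaP:C4-2 cells (C4-2 below) given the KDM1A inhibitor namoline was set directly against the RNA of the same cells given the KDM7A inhibitor TCE-5002. The members were chosen by library title: 2 C4-2 libraries with R1881 and namoline and 2 C4-2 libraries with R1881 and TCE-5002, which makes 4 of the 12 libraries of the series. C4-2 is a castration-resistant derivative of LNCaP, a human prostate cancer line. Every library came from cells grown in hormone-depleted serum with the synthetic androgen R1881 at 1 nM, so none lacks androgen, and cells were treated for 72 h. Namoline was used at 50 µM. TCE-5002 stands at 100 µM in the series description but at a lower dose in the methods of the study, so it is not settled which dose these libraries had, and the inhibitors cannot be matched by dose. A treatment field in the labels describes siRNA work that does not match these libraries, and groups were taken from the titles. The 2 C4-2 libraries with R1881 alone are shown beside the inhibitors for orientation, with no test. Both inhibitors were measured in 1 cell line. The methods of the study call the 2 libraries of a group biological replicates without saying how the cultures were separated. The p-values below thus measure spread between libraries only, pooled over the 8 C4-2 libraries and shared between genes. Replicates with R1881 alone or with both inhibitors lay closer together than the TCE-5002 replicates.

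KDM1A removes methyl groups from histone lysines by an oxidation that uses FAD, and works in the CoREST repressor complex or beside nuclear hormone receptors. KDM7A belongs to another enzyme family, the Jumonji demethylases, which use iron and oxoglutarate and include its close relatives PHF8 and KDM2A, which TCE-5002 also reaches. Both enzymes have been studied in prostate cancer as partners of androgen signalling, and the contrast asks which transcripts tell inhibition of one from inhibition of the other.

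Total counts of the 4 libraries ran from 17973501 to 20131812. The TCE-5002 replicates differed more than the namoline replicates: of 9905 genes over 10 CPM (counts scaled to a common effective library size), 43 were at least 2-fold apart between the TCE-5002 replicates and 4 between the namoline replicates. The difference between TCE-5002 replicates followed the GC content of the transcript, with a Spearman correlation of -0.80 across genes against -0.51 for namoline, given as a description because genes share their libraries. Prostate luminal markers were present in every library, with a summed level between 5202 and 7289 CPM. Of the other marker lists, basal markers summed to between 6.09 and 9.54 CPM, mostly ITGB4, with TP63, which defines basal cells, at no counts in any of the 4. Fibroblast and mesenchymal markers summed to between 63.5 and 94.8 CPM, mostly COL1A1 and FN1, with COL3A1, DCN and LUM at no counts, endothelial markers to between 5.14 and 6.48 CPM and neuroendocrine markers to between 1.51 and 2.71 CPM. The leukocyte list summed to at most 2.38 CPM. The TCE-5002 files carry another series of library numbers than the namoline files, and whether the libraries were prepared together is not given in the sources used here, so preparation and inhibitor cannot be told apart.

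**Figure D1:**
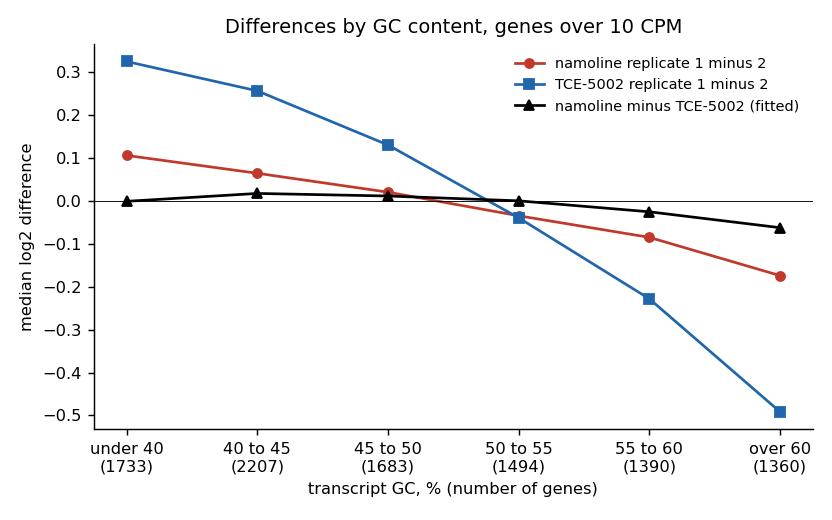
Median log2 difference (vertical axis) by GC content of the transcript (horizontal axis, with the number of genes), for genes over 10 CPM, between namoline replicates (red), between TCE-5002 replicates (blue) and in the fitted contrast (black). The TCE-5002 replicates part by 0.32 in the lowest bin and by -0.49 in the highest, while the contrast stays between -0.06 and 0.02.

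Of 17702 genes tested by quasi-likelihood in edgeR, 876 (4.95%) passed an adjusted p-value of 0.05 and a 2-fold difference. They divided into 428 genes higher with namoline (2.42%) and 448 higher with TCE-5002 (2.53%). By the adjusted p-value alone, 1577 genes were higher with namoline (8.91%) and 1638 with TCE-5002 (9.25%). These 4 shares of all genes are the background for the counts of list members below. The median log2 fold change over all genes tested was -0.02. In what follows a log2 fold change is namoline minus TCE-5002, so a positive value is higher with namoline, errors are standard errors of the fit, and "passed" means both criteria unless the adjusted p-value alone is named. Of the genes higher with namoline 331 were protein coding, and of those higher with TCE-5002, 304. The median GC content was 46.9% and 51.5%, beside 48.6% in genes that did not pass. Leaving out namoline replicate 2 took the number of genes that passed to 494, with 240 and 254 in the respective directions. Without TCE-5002 replicate 1, 742 genes were higher with TCE-5002, and without TCE-5002 replicate 2, 644 were higher with namoline.

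**Figure D2:**
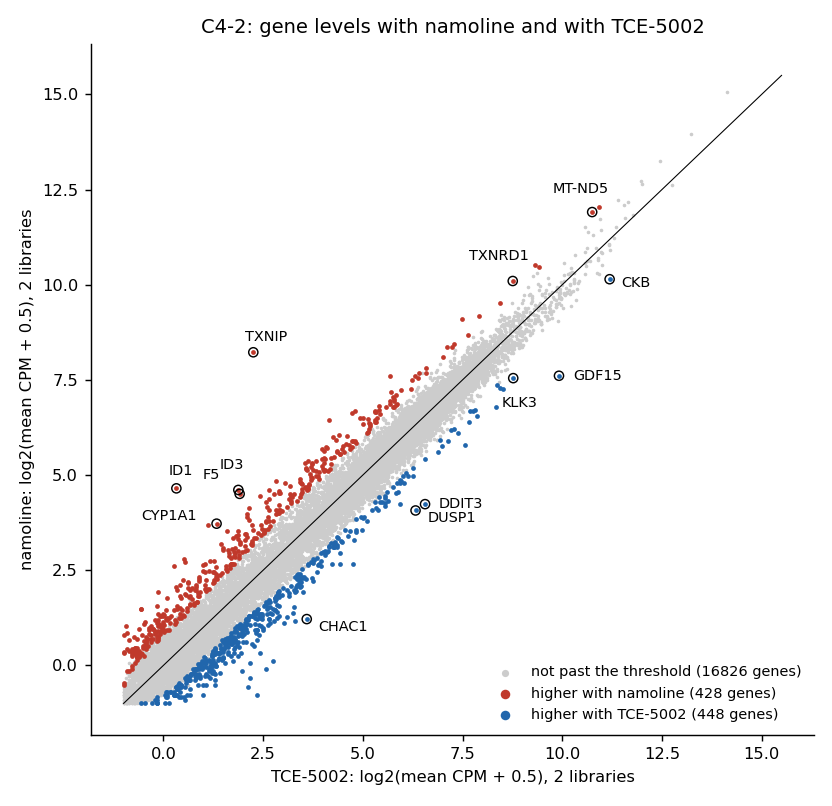
Mean level of each tested gene with TCE-5002 (horizontal axis) and with namoline (vertical axis), both as log2 of mean CPM plus 0.5 over 2 libraries; red points passed as higher with namoline (428) and blue points as higher with TCE-5002 (448). Of the genes labelled, TXNIP and ID1 lie farthest above the diagonal, and CHAC1, DDIT3, DUSP1 and GDF15 lie farthest below it.

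The transcripts of the inhibitors' own targets differed by less than 2-fold. KDM1A was at 113 and 124 CPM with namoline and 106 and 88.6 CPM with TCE-5002. KDM7A was at 62.2 and 54.5 against 69.4 and 59.5 CPM, and those ranges overlapped. Their log2 fold changes of 0.28 ± 0.12 and -0.14 ± 0.12 did not pass, with adjusted p-values of 0.103 and 0.466 from edgeR. PHF8, a KDM7A relative, also did not pass (-0.21 ± 0.11, adjusted p = 0.196, edgeR). KDM2A was at 152 and 156 CPM with namoline and 103 and 113 CPM with TCE-5002, and its difference of 0.52 ± 0.11 passed the adjusted p-value (0.00508, edgeR) but not the fold. An enzyme inhibitor need not change the transcript of its target, so these values check no label. Of 15 measured genes of KDM1A and its CoREST partners, 1 passed as higher with TCE-5002 (2.53% of all genes): RCOR2, a CoREST paralogue, at 1.15 and 0.927 CPM with namoline and 2.49 and 2.48 CPM with TCE-5002 (-1.25 ± 0.35). It did not pass without namoline replicate 1 (adjusted p = 0.0716, edgeR) or replicate 2 (0.175). None of the 5 KDM2 and KDM7 genes or of the 11 KDM3 to KDM6 genes passed.

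TXNIP, which binds thioredoxin and limits glucose uptake, differed more than any other gene over 10 CPM that was higher with namoline. It was at 319.9 and 278 CPM with namoline and at 4.26 and 4.27 CPM with TCE-5002, beside 767 and 714 CPM with R1881 alone. Namoline libraries thus lay below R1881 alone, and TCE-5002 libraries lay far below both. The fitted difference was 69.9-fold (6.13 ± 0.15, adjusted p = 2.96e-12, edgeR). Its relatives among the alpha-arrestins, adaptors that take membrane proteins into the cell, lay in the same direction. ARRDC3 was at 95.9 and 77.7 CPM with namoline and 16.4 and 18.2 CPM with TCE-5002 (log2 fold change 2.33 ± 0.15). ARRDC4 was at 23.7 and 19.2 against 5.93 and 3.85 CPM (2.13 ± 0.19). ARRDC2 did not pass (0.02, adjusted p = 0.956, edgeR). For ARRDC3 the R1881 libraries, at 47.9 and 40.4 CPM, lay between the inhibitors, whereas for ARRDC4, at 33.2 and 34.2 CPM, they lay above both. TXNRD1, the thioredoxin reductase of the cytosol, was at 1114 and 1076 CPM with namoline and 486 and 379 CPM with TCE-5002 (1.34 ± 0.13). These 4 of 9 genes of the TXNIP network passed as higher with namoline (2.42% of all genes) and 0 as higher with TCE-5002, which became 1 without namoline replicate 1 or TCE-5002 replicate 1. The glucose-sensing factors MLXIP and MLX did not pass, with values of 0.19 and 0.07. MLXIPL, at 23.1 and 21.8 against 33.2 and 55.96 CPM, passed the adjusted p-value alone in the other direction (-0.99). Part of the exons of ARRDC3 lie opposite an antisense gene, and counting without strand did not separate them.

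The promoters of TXNIP and ARRDC4 are printed because TXNIP has the largest difference among genes over 10 CPM and ARRDC4, a relative that also passed, holds an E-box. They run from 250 bases before to 50 after the start, 5′ to 3′ on the strand of the gene, from RefSeq on GRCh38.p14. In TXNIP (chr1:145996530-145996829, minus strand) capitals mark CCAAT boxes (CCAAT on either strand). In ARRDC4 (chr15:97960453-97960752, plus strand) they mark an E-box, CACGTG. E-box letters are only a part of the element that glucose-sensing factors bind, and the whole element was not searched. Other forms of the E-box, which differ from CACGTG in single letters, were not searched. TXNIP holds such letters, left unmarked: CACGAG occurs at separate places in the printed sequence. Whether they are bound was not tested.
TXNIP: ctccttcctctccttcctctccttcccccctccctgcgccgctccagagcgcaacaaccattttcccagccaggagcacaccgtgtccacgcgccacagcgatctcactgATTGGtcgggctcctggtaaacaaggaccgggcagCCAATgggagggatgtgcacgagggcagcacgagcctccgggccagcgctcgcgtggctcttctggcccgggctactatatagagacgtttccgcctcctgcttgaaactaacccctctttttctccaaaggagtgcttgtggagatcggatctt
ARRDC4: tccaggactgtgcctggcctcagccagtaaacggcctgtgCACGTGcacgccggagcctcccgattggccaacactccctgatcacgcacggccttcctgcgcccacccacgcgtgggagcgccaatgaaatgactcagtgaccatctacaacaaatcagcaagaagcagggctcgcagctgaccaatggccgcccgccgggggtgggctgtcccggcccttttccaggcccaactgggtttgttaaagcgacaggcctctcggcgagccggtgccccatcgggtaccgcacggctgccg
CCAAT was found in 35.7% and CACGTG in 7.43% of the 27305 promoters in the table. In the TXNIP network CACGTG, spelled exactly, was found in 2 of 9 promoters and at 2 or more positions in 0 of 9. It was not found in TXNIP, whose CACGAG letters were not counted. TXNIP held CCAAT at positions -140 and -105 counted from the start.

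The ID genes, inhibitors of helix-loop-helix factors that are induced by bone morphogenetic proteins, were higher with namoline. ID1 was at 25.04 and 24.2 CPM with namoline and at 0.659 and 0.843 CPM with TCE-5002, a difference of 5.02 ± 0.22 (adjusted p = 7.72e-09, edgeR). R1881 alone stood between them at 8.22 and 9.51 CPM. ID3 was at 20.7 and 23.7 CPM against 3.20 and 3.32 CPM (2.77 ± 0.18), again with R1881 alone between them at 11.6 and 14.5 CPM. ID2 was at 11.3 and 10.95 against 2.38 and 2.63 CPM (2.15 ± 0.19). Its R1881 libraries, at 14.1 and 16.2 CPM, lay above those of both inhibitors. ID4, far less abundant at 1.21 and 0.985 against 0.457 and 0.369 CPM, also passed (1.40 ± 0.38). The exons of ID2 lie partly opposite an antisense gene. The 4 ID genes were the members higher with namoline among 16 measured genes of TGF-beta and BMP signalling, and 1 member passed in the other direction: LTBP1, which holds latent TGF-beta in the matrix, at 3.46 and 2.38 against 6.39 and 6.59 CPM (-1.15 ± 0.25). It did not pass without namoline replicate 2 (-0.93), and without TCE-5002 replicate 2 the members higher with TCE-5002 numbered 2. The inhibitory SMAD6 passed the adjusted p-value alone (0.72), while SMAD7 (0.29) and the decoy receptor BAMBI (-0.34) did not pass. The median of the list was 0.35.

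**Figure D3:**
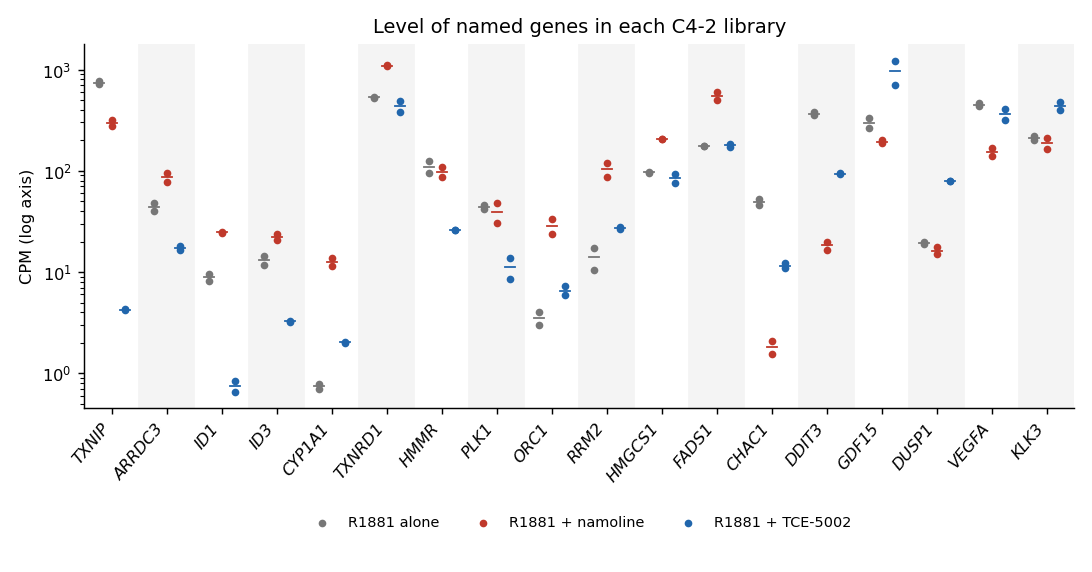
CPM (log axis) of 18 named genes in each library, with 1 point per library and a bar at the mean of 2; grey is R1881 alone, red namoline and blue TCE-5002. For each gene shown the red and blue points do not overlap, as in 26.1% (namoline above) and 27.2% (TCE-5002 above) of all genes tested, with TXNIP, ID1 and CYP1A1 above in red and CHAC1, DDIT3 and DUSP1 above in blue.

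Genes of mitosis were higher with namoline than with TCE-5002. Of 37 measured genes of the G2 and M phases, 25 passed as higher with namoline and 0 as higher with TCE-5002, against 2.42% and 2.53% of all genes tested. Without namoline replicate 2 the first number was 16. By the adjusted p-value alone 36 were higher with namoline (8.91% of all genes), and CENPA, at 0.71, was the one left. The median log2 fold change of the list was 1.18 beside -0.02 for all genes, and it lay between 0.93 and 1.35 when each library was left out in turn. The summed level of the list was 1801 and 2315 CPM with namoline, 930.0 and 867 CPM with TCE-5002 and 2159 and 1739 CPM with R1881 alone. The namoline libraries therefore overlapped R1881 alone, and the TCE-5002 libraries lay below both. HMMR, which binds hyaluronan and the mitotic spindle, was at 87.4 and 109 CPM with namoline and 26.2 and 25.8 CPM with TCE-5002, a difference of 1.91 ± 0.19 (adjusted p = 3.52e-05, edgeR). PLK1, the kinase that drives mitotic entry, was at 30.7 and 48.5 against 8.57 and 13.9 CPM (1.82 ± 0.22). The namoline replicates of PLK1 lay apart, and both were above both TCE-5002 replicates. CDC20, which activates the anaphase-promoting complex, was at 46.9 and 80.96 against 15.2 and 21.7 CPM (1.79 ± 0.23). Cyclin B1 (CCNB1, 1.16), topoisomerase TOP2A (1.29), the kinase BUB1 (1.40) and the factor FOXM1 (1.07) passed too. CDK1 at 0.98 and CCNB2 at 0.99 fell just short of the 2-fold criterion. In these bulk libraries fewer cells in mitosis and less RNA per cell cannot be told apart.

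The promoters of HMMR and PLK1, the G2 and M genes with the largest differences, are printed to show the cell cycle genes homology region (CHR, TTTGAA on either strand) near their starts, an element through which the DREAM and MuvB complexes act on genes of mitosis. Both come from RefSeq on GRCh38.p14, with the CHR in capitals (HMMR, chr5:163460382-163460681, plus strand; PLK1, chr16:23678639-23678938, plus strand).
HMMR: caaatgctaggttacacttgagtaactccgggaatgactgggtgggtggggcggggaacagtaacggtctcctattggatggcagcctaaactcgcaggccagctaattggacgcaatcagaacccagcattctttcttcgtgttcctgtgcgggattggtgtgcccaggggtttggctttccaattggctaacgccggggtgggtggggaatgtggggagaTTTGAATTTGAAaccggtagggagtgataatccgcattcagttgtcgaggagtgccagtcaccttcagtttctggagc
PLK1: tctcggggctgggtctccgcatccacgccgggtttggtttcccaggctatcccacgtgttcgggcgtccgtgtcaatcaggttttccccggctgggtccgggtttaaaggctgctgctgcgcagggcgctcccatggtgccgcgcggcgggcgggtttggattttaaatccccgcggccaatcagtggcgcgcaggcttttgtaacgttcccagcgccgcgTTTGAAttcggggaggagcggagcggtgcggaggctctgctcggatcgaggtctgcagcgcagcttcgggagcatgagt
The CHR lay at -28 and -22 in HMMR and at -29 in PLK1. It was found in 20 of 31 promoters of the list with an entry (64.5%) and in 15.4% of all promoters of this length. CCAAT was found in 23 of 31 promoters against 35.7%, but was not particular to this list. It was also in 18 of 32 replication, 13 of 21 integrated stress response, 6 of 9 TXNIP network and 3 of 6 aryl hydrocarbon receptor promoters. These are matches of letters, not measured binding.

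DNA replication genes were also higher with namoline, most of them by less than 2-fold. Of 36 measured, 11 passed in that direction (2.42% of all genes), or 7 without namoline replicate 2, and 0 passed as higher with TCE-5002 (2.53% of all genes). The adjusted p-value alone was passed by 29, all higher with namoline (8.91% of all genes), and the median was 0.75. Relative to R1881 alone the median member stood at 1.38 and 1.77 (log2) in the namoline libraries and at 0.79 and 0.74 in the TCE-5002 libraries, so that, unlike the genes of mitosis, these genes lay above R1881 alone with either inhibitor. ORC1, the largest subunit of the origin recognition complex, was at 23.7 and 33.1 CPM with namoline, 7.20 and 5.90 CPM with TCE-5002 and 4.02 and 2.98 CPM with R1881 alone (2.12 ± 0.26, adjusted p = 0.000107, edgeR). The checkpoint mediator CLSPN was at 46.9 and 54.2 against 16.7 and 13.96 CPM (1.72 ± 0.19). CDC6, which loads the replicative helicase with CDT1, was at 77.4 and 102 against 30.7 and 29.2 CPM (1.58 ± 0.16). The helicase subunits ran from MCM3 at 0.59 to MCM4 at 1.30, and all 6 passed the adjusted p-value. The DNA polymerase epsilon genes POLE (0.12) and POLE2 (0.34) did not pass.

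The promoter of CDC6 (chr17:40287629-40287928, plus strand, RefSeq on GRCh38.p14) is printed as an example of a replication gene with E2F-type letters, TTTGGCG or TTTCGCG on either strand, in capitals.
CDC6: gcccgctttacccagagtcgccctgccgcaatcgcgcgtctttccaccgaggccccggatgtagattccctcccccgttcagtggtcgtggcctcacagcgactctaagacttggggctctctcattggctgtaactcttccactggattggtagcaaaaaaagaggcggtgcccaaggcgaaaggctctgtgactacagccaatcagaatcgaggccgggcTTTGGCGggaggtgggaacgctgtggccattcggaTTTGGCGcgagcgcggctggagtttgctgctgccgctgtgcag
They lay at -28 and at 8. Such letters were found in 14 of 32 promoters of the replication list, 43.8%, beside 3.22% of all promoters, and the CHR in 1 of 32 promoters. CDC6 was chosen for printing among the genes with a match after the matches were known.

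Genes of DNA repair, and fewer of nucleotide synthesis, were higher with namoline, most of them by less than 2-fold. Of 26 genes of homologous recombination and the Fanconi pathway, 19 were higher with namoline by the adjusted p-value alone and 0 with TCE-5002. All genes gave 8.91% and 9.25%. Of the 26, 6 passed as higher with namoline and 0 in the other direction, beside 2.42% and 2.53% of all genes, with a median of 0.70. Without namoline replicate 2 or TCE-5002 replicate 2 the first number was 3 or 2. BRCA2, which serves repair by homologous recombination, was at 72.5 and 89.7 CPM with namoline and 30.8 and 31.98 CPM with TCE-5002 (1.37 ± 0.17). The nuclease EXO1 was at 23.3 and 27.9 against 10.3 and 6.59 CPM (1.59 ± 0.24). By the adjusted p-value alone 9 of 23 genes of nucleotide synthesis were higher with namoline and 0 with TCE-5002. Of the 23, 2 passed, both higher with namoline. They were RRM2, the S-phase subunit of ribonucleotide reductase, at 87.02 and 119 against 28.05 and 26.8 CPM (1.91 ± 0.21), and TYMS, thymidylate synthase, at 51.2 and 67.7 against 27.8 and 27.1 CPM (1.11 ± 0.15). Both were above R1881 alone, at 17.5 and 10.5 and 16.5 and 14.1 CPM. TYMS overlaps genes on the opposite strand and fell below 2-fold without namoline replicate 2 (0.87). Purine synthesis genes such as GART (0.04) and ATIC (0.01) did not pass, and the list median was 0.29. UHRF1, which brings the maintenance methyltransferase to replicating DNA, was the 1 of 12 DNA methylation genes to pass, at 23.6 and 31.4 CPM with namoline, 8.93 and 11.4 CPM with TCE-5002 and 1.62 and 1.58 CPM with R1881 alone (1.43 ± 0.18).

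Regulators of G1 were mixed. Among 21 measured CDK inhibitors, RB family members, G1 cyclins and E2F genes the median was 0.22. Of them 5 passed as higher with namoline and 1 as higher with TCE-5002, beside 2.42% and 2.53% of all genes. Without namoline replicate 2 the first number was 3. Cyclin E2 (CCNE2), which starts S phase with CDK2, was at 20.1 and 20.6 CPM with namoline and 6.29 and 5.22 CPM with TCE-5002 (1.82 ± 0.19). The repressor E2F7 was at 15.1 and 17.8 against 6.29 and 7.53 CPM (1.25 ± 0.17). In the other direction CDKN1C, the CDK inhibitor p57, was at 2.54 and 4.87 against 9.13 and 11.8 CPM (-1.50 ± 0.29). CDKN1A, the CDK inhibitor p21 and a p53 target, was higher with namoline although genes of division were too: 234 and 176 CPM with namoline, 90.3 and 99.95 CPM with TCE-5002 and 57.3 and 72.5 CPM with R1881 alone (1.11 ± 0.15, adjusted p = 0.000197, edgeR). It fell below 2-fold without namoline replicate 1 (0.87). CCND1, cyclin D1, did not pass (0.01).

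Of 30 p53 targets 3 passed as higher with namoline and 1 as higher with TCE-5002, beside 2.42% and 2.53% of all genes, and by the adjusted p-value alone 14 and 2, beside 8.91% and 9.25%, with a median of 0.41. Without namoline replicate 1, 1 passed as higher with namoline. TP53I3, an oxidoreductase named for its induction by p53, was at 16.4 and 12.3 CPM with namoline and 2.84 and 4.64 CPM with TCE-5002 (1.94 ± 0.23). It shares exonic sequence with FAM228B on the opposite strand. The death receptor FAS passed (1.10 ± 0.27), and MDM2, which degrades p53, passed the adjusted p-value alone (0.50). The member that passed in the other direction was GDF15, a secreted cytokine of stress that p53 and the stress factors ATF4 and DDIT3 can each induce. It was at 189.7 and 199.5 CPM with namoline and 708 and 1227 CPM with TCE-5002, beside 262 and 335 CPM with R1881 alone (-2.31 ± 0.20, adjusted p = 1.15e-05, edgeR). The TCE-5002 replicates of GDF15 were far apart, with both above every namoline and R1881 value.

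In the integrated stress response ATF4 turns on genes of amino acid supply and of cell death. Of 27 measured genes 8 passed as higher with TCE-5002 and 0 as higher with namoline, beside 2.53% and 2.42% of all genes. By the adjusted p-value alone the numbers were 19 and 0, beside 9.25% and 8.91%. The list median was -0.53, and without TCE-5002 replicate 2 the number that passed was 5. CHAC1, which degrades glutathione, was at 2.08 and 1.56 CPM with namoline and 10.9 and 12.2 CPM with TCE-5002 (-2.66 ± 0.20, adjusted p = 2.96e-06, edgeR). DDIT3, the factor CHOP, was at 19.97 and 16.7 against 92.4 and 95.3 CPM (-2.36 ± 0.12, adjusted p = 6.7e-08, edgeR). With R1881 alone they stood at 45.9 and 52.8 and 381 and 355 CPM, so both inhibitors lay below R1881 alone and namoline lay lowest. Exonic sequence of DDIT3 overlaps MARS1 on the other strand. CTH, which makes cysteine (-1.45), the partner factor CEBPG (-1.28), TRIB3, which restrains ATF4 (-1.02), and NUPR1 (-1.11) passed as well. ATF4 itself, at 326 and 291 against 408 and 449 CPM, passed the adjusted p-value but not the fold (-0.48). The serine synthesis genes of the list did not follow: PHGDH stood at 0.13 and PSAT1 at -0.35, and neither passed. Relative to R1881 alone the median member stood at -1.78 and -1.76 with namoline and -1.18 and -1.11 with TCE-5002 on the log2 scale.

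The promoter of CHAC1 (chr15:40953221-40953520, plus strand, RefSeq on GRCh38.p14) holds the letters of a composite C/EBP-ATF element, TGATGCA on either strand, the kind of site at which ATF4 binds. It is printed as the gene with the largest difference of the list, with the match in capitals.
CHAC1: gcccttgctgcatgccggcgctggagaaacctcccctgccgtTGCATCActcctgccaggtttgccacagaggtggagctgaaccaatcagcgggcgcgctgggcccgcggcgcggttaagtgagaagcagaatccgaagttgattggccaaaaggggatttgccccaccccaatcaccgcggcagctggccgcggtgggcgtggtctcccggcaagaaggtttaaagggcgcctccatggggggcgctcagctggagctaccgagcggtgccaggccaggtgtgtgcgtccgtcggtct
The match lay at -208. These letters were found in 2 of 21 promoters of the list and in 2.69% of all promoters.

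**Figure D4:**
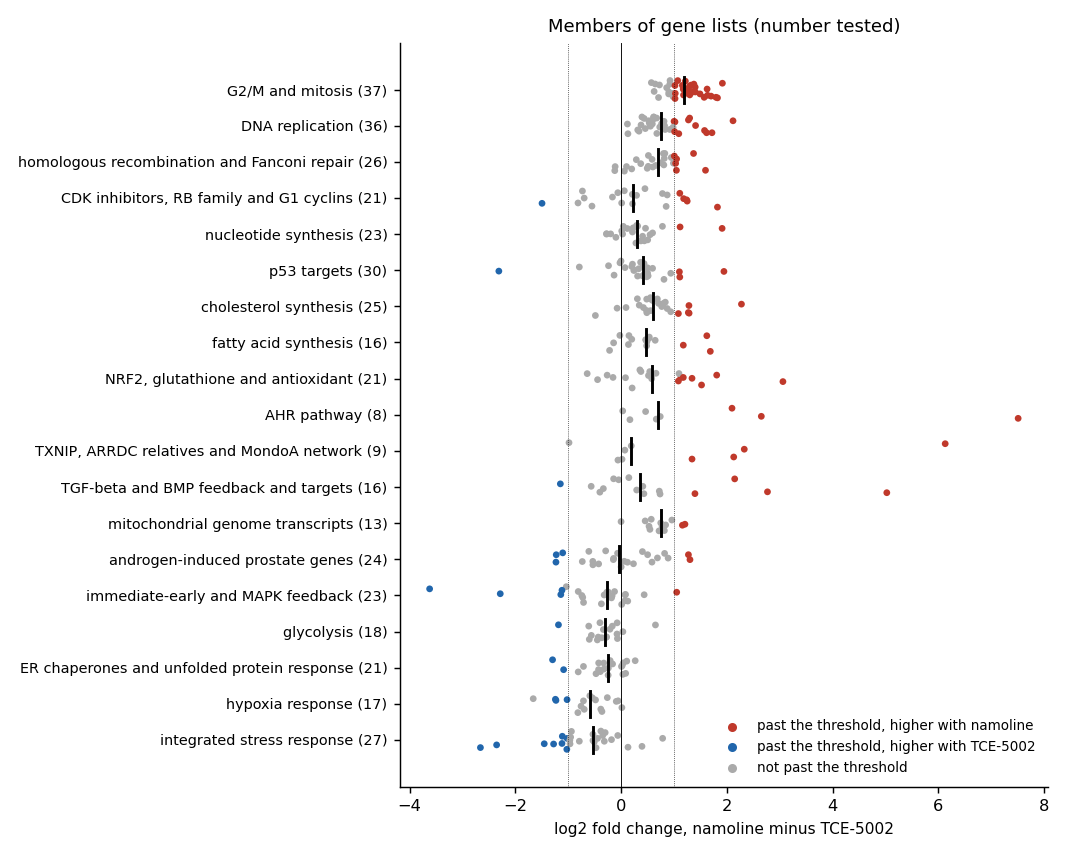
Log2 fold change, namoline minus TCE-5002 (horizontal axis), of the measured members of 19 gene lists, with the number tested; each point is a gene, red passed as higher with namoline, blue as higher with TCE-5002, the bar is the list median and dotted lines mark a 2-fold difference. The list of G2 and M genes lies wholly to the right with a median of 1.18, and the integrated stress response has a median of -0.53.

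Of 21 chaperones and response genes of the endoplasmic reticulum 2 passed as higher with TCE-5002 (2.53% of all genes). HERPUD1, which serves degradation of misfolded proteins, was at 72.2 and 73.6 CPM with namoline and 147 and 163 CPM with TCE-5002 (-1.09 ± 0.11). The oxidase ERO1B was at 9.75 and 8.06 against 23.2 and 20.6 CPM (-1.30 ± 0.15). The chaperone HSPA5 (-0.32, adjusted p = 0.0605, edgeR) did not pass. None of 20 cytosolic aminoacyl-tRNA synthetases, many of them ATF4 targets, passed, and 5 were higher with TCE-5002 by the adjusted p-value alone. The most abundant of them, IARS1, was at 565 and 530.4 against 603 and 516 CPM. Amino acid transporters divided: 4 of 18 passed as higher with namoline and 0 as higher with TCE-5002 (2 without TCE-5002 replicate 1), and by the adjusted p-value alone 7 and 6. All genes gave 2.42% and 2.53% past both criteria and 8.91% and 9.25% past the adjusted p-value alone. SLC38A4, a carrier of neutral amino acids, was at 5.02 and 6.09 CPM with namoline and 0.355 and 1.05 CPM with TCE-5002 (2.98 ± 0.34). The taurine carrier SLC6A6 was at 13.3 and 17.2 against 3.40 and 4.22 CPM (2.00 ± 0.23). SLC3A2, the shared heavy chain of amino acid exchangers and also a member of the stress list, lay in the other direction (-0.53) and passed the adjusted p-value alone.

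Of 17 measured hypoxia genes 3 passed as higher with TCE-5002 (2.53% of all genes) and 0 as higher with namoline, 12 were higher with TCE-5002 by the adjusted p-value alone (9.25% of all genes), and the median was -0.59. VEGFA, the endothelial growth factor, was at 140.3 and 168 CPM with namoline and 319 and 411 CPM with TCE-5002, beside 437 and 462 CPM with R1881 alone (-1.24 ± 0.14, adjusted p = 7.26e-05, edgeR). NDRG1, a stress and androgen responsive gene, was at 42.8 and 75.9 against 114 and 165 CPM (-1.23 ± 0.21). It fell below 2-fold without namoline replicate 1 (-0.90) or TCE-5002 replicate 2 (-0.95). P4HA1, a collagen prolyl hydroxylase, also passed (-1.02). KDM3A, a histone demethylase that hypoxia induces, passed the adjusted p-value alone (-0.59). Relative to R1881 alone, the median hypoxia gene stood at -0.25 and -0.18 with namoline and at 0.28 and 0.46 with TCE-5002. Of 18 glycolysis genes 1 passed as higher with TCE-5002, ENO2, a neuronal enolase, at 10.5 and 11.7 against 16.1 and 34.5 CPM. Its TCE-5002 replicates were more than 2-fold apart, and it did not reach 2-fold without replicate 2 (-0.54). The list median was -0.31, with LDHA at -0.56 and PGK1 at -0.60 among 7 genes past the adjusted p-value alone in that direction, while HK1 (0.65) lay in the other.

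Immediate-early genes and MAPK feedback genes were heterogeneous. Of 23 measured 4 passed as higher with TCE-5002 and 1 as higher with namoline, beside 2.53% and 2.42% of all genes. DUSP1, a phosphatase that inactivates stress-activated kinases, was at 15.1 and 17.5 CPM with namoline and 80.1 and 78.8 CPM with TCE-5002 (-2.29 ± 0.13, adjusted p = 1.3e-07, edgeR). R1881 alone at 18.98 and 19.7 CPM lay near namoline. JUN (-1.14 ± 0.12) and the ETS factor ETV5 (-1.12 ± 0.27) passed in the same direction. FOS was at 0.577 and 0.290 CPM with namoline and 9.69 and 1.11 CPM with TCE-5002. Its level thus rests on 1 TCE-5002 library, and it did not pass without that library (-1.35, adjusted p = 0.106, edgeR) or without namoline replicate 2 (adjusted p = 0.075), which left 2 of the 4. DUSP2, a phosphatase of the nucleus, lay in the other direction at 18.7 and 23.4 against 8.83 and 11.5 CPM (1.05 ± 0.18) and fell below 2-fold without namoline replicate 2 (0.86) or TCE-5002 replicate 1 (0.86). The kinase feedback gene DUSP6 (0.08) and EGR1 (-0.24) did not pass.

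Of 25 measured genes of sterol synthesis 5 passed as higher with namoline (2.42% of all genes) and 0 as higher with TCE-5002 (2.53%), and by the adjusted p-value alone 20 and 1 (8.91% and 9.25%), with a median of 0.59. HMGCS1, which makes HMG-CoA, was at 204 and 208 CPM with namoline and 93.9 and 75.1 CPM with TCE-5002 (1.28 ± 0.12, adjusted p = 1.8e-05, edgeR). R1881 alone, at 95.6 and 97.1 CPM, lay near TCE-5002. The sterol sensor INSIG1 passed too (1.27 ± 0.13). TM7SF2, a sterol reductase, lay in the other direction (-0.49) and passed the adjusted p-value alone. The median member stood at 0.76 and 1.02 relative to R1881 alone with namoline and at 0.25 and 0.21 with TCE-5002.

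Of 16 fatty acid synthesis genes 3 passed as higher with namoline and 0 as higher with TCE-5002, beside 2.42% and 2.53% of all genes. The list median was 0.48. FADS1, a desaturase of long unsaturated fatty acids, was at 499 and 596 CPM with namoline and 183 and 173 CPM with TCE-5002 (1.62 ± 0.12, adjusted p = 1.78e-06, edgeR). It shares exonic sequence with its neighbour FADS2 on the other strand, which stood at 0.46. The elongase ELOVL6 was at 60.8 and 71.9 against 25.1 and 16.1 CPM (1.69 ± 0.20), with both inhibitors above R1881 alone at 5.49 and 5.07 CPM. Malic enzyme ME1, which supplies NADPH, passed (1.18). FASN (0.64) and SCD (0.53) passed the adjusted p-value alone, and ACACA (0.20) did not pass.

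Of 21 antioxidant genes under NRF2, the transcription factor that is released when KEAP1 senses electrophiles, 7 passed as higher with namoline (2.42% of all genes) and 0 as higher with TCE-5002, with a median of 0.58. OSGIN1 was at 15.9 and 21.9 CPM with namoline and 5.38 and 5.43 CPM with TCE-5002 (1.81 ± 0.20). The aldo-keto reductase AKR1B10 was at 0.923 and 1.33 against 0.101 and 0.158 CPM, levels at which the TCE-5002 libraries held few counts, and it did not pass without namoline replicate 2 (adjusted p = 0.0607, edgeR). The quinone reductase NQO1 (1.08 ± 0.15), the sulfiredoxin SRXN1 (1.52 ± 0.26) and PGD of the pentose phosphate path (1.13 ± 0.11) passed, as did TXNRD1 and ME1 given above. Haem oxygenase HMOX1 (-0.64, adjusted p = 0.051, edgeR) did not pass, and SLC7A11, the cystine carrier shared with the stress list, was higher with TCE-5002 by the adjusted p-value alone (-0.45). Relative to R1881 alone the median member stood at 0.86 and 0.86 with namoline and at -0.01 and 0.09 with TCE-5002.

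Of 8 measured targets of the aryl hydrocarbon receptor, which senses planar aromatic compounds, 3 passed as higher with namoline (2.42% of all genes). CYP1A1, its classical target, was at 11.5 and 13.9 CPM with namoline, 1.98 and 2.05 CPM with TCE-5002 and 0.785 and 0.697 CPM with R1881 alone (2.65 ± 0.22, adjusted p = 6.44e-06, edgeR). ALDH3A1 had 22 and 21 counts in the namoline libraries and 0 in both TCE-5002 libraries, which makes it at least 8.01-fold higher with namoline against a floor of 3 counts per library. CYP1A2 passed at a low level, 1.27 and 0.985 against 0.254 and 0.263 CPM. DESeq2, an alternative test, gave ALDH3A1 and CYP1A2 no adjusted p-value. CYP1B1, at 1.56 and 1.85 against 2.03 and 1.00 CPM, did not pass. The metallothionein MT2A, which binds zinc, was at 49.9 and 62.3 CPM with namoline and 16.5 and 30.6 CPM with TCE-5002 (1.25 ± 0.21) and was the 1 of 5 measured zinc response genes to pass. Its TCE-5002 replicates lay far apart, and without replicate 1 it fell below 2-fold (0.86). None of 9 iron genes passed, with ferritin FTH1 at 1949 and 1771 against 1277 and 1771 CPM.

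**Figure D5:**
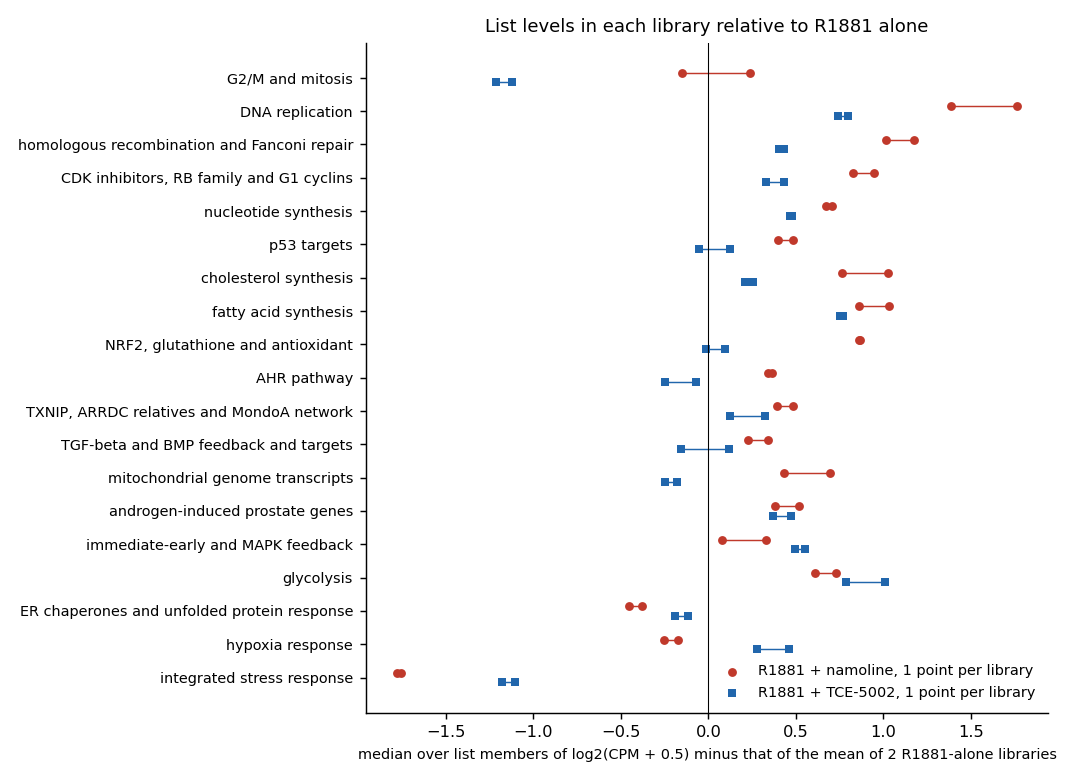
Median over the members of each list of log2 CPM (plus 0.5) in a library minus that of the mean of the R1881-alone libraries (horizontal axis), with 1 point per library, red for namoline and blue for TCE-5002. G2 and M genes stand at -0.15 and 0.24 with namoline and at -1.12 and -1.21 with TCE-5002, whereas replication genes stand above 0 with both.

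Of 13 protein genes of the mitochondrial genome 2 passed as higher with namoline (2.42% of all genes), 12 were higher with namoline by the adjusted p-value alone (8.91%), and the median was 0.75. Their summed level was 54874 and 65764 CPM with namoline and 36505 and 35998 CPM with TCE-5002, beside 36975 and 44599.5 CPM with R1881 alone. The complex I subunit MT-ND5 was at 3628 and 4061 against 1623 and 1822 CPM (1.16 ± 0.13, adjusted p = 5.27e-05, edgeR), and MT-ND4L, which overlaps MT-ND4, at 1365 and 1569 against 669 and 602 CPM. MT-ND3 was the one that missed the adjusted p-value (0.996, edgeR).

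Androgen-induced genes showed no common direction. Of 24 measured 2 passed as higher with namoline and 3 as higher with TCE-5002, beside 2.42% and 2.53% of all genes. By the adjusted p-value alone the numbers were 7 and 7, beside 8.91% and 9.25%, and the median was -0.03. Without TCE-5002 replicate 1 the genes higher with namoline numbered 4, and without namoline replicate 1 those higher with TCE-5002 numbered 1. KLK3, which encodes prostate-specific antigen, was at 163 and 209.7 CPM with namoline and 396 and 477 CPM with TCE-5002, beside 203 and 222 CPM with R1881 alone (-1.23 ± 0.15, adjusted p = 0.000107, edgeR). NDRG1, given above, and the factor MAF (-1.11 ± 0.20) passed in the same direction. TMPRSS2, the protease gene fused to ETS factors in many prostate tumours, was at 727 and 825 against 1263 and 1321 CPM. Its difference of -0.74 ± 0.12 passed the adjusted p-value (0.000875, edgeR) but not the fold, and both inhibitors lay above R1881 alone at 371 and 391 CPM. In the other direction the cold channel TRPM8 was at 10.7 and 13.9 CPM with namoline and 5.38 and 4.58 CPM with TCE-5002 (1.30 ± 0.20). The condensin subunit NCAPD3 was at 155 and 204 against 74.7 and 74.1 CPM (1.27 ± 0.14), with exonic overlaps on the other strand. FKBP5 (0.40, adjusted p = 0.0717, edgeR) did not pass. FOXA1, the pioneer factor of the prostate, was at 369 and 391 against 457 and 479 CPM and did not pass (-0.30 ± 0.11, adjusted p = 0.0743, edgeR). Among 11 lineage factors 1 passed, KLF5, an epithelial factor, at 27.9 and 30.4 against 15.7 and 13.2 CPM (1.01 ± 0.15), and it fell below 2-fold without namoline replicate 2 (0.92) or TCE-5002 replicate 2 (0.89). Of 11 luminal markers 6 were higher with TCE-5002 by the adjusted p-value alone and 1 with namoline, beside 9.25% and 8.91% of all genes. Their median was -0.46. KRT8 (0.06) and KRT18 (-0.22), keratins of luminal cells, did not pass, while KLK2 (-0.53) and FOLH1 (-0.50), which encodes prostate-specific membrane antigen, passed the adjusted p-value alone.

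Other genes were named by size or level rather than through a list. Higher with namoline were coagulation factor V (F5), at 20.7 and 27.1 against 3.45 and 2.90 CPM, and CYP11A1, the enzyme that opens steroid synthesis, at 9.64 and 15.1 against 1.72 and 1.58 CPM. For CYP11A1 R1881 alone, at 2.86 and 2.09 CPM, lay near TCE-5002. MYOF, a membrane repair protein, was at 15.8 and 18.6 against 4.01 and 3.79 CPM, and the abundant PRUNE2 at 1463 and 1356 against 701 and 663 CPM, whose difference was 0.97 without namoline replicate 1. Their log2 fold changes were 2.91, 2.90, 2.14 and 1.05. Higher with TCE-5002 were the sugar nucleotide enzyme homologue UAP1L1 at 55.05 and 53.9 against 149.7 and 229 CPM, the retinal reductase DHRS3 at 4.90 and 3.30 against 10.7 and 15.3 CPM, and the G protein subunit GNG7 at 5.89 and 5.85 against 15.9 and 20.5 CPM. The creatine kinase CKB was at 946 and 1317 CPM with namoline and 1859 and 2807 CPM with TCE-5002, above R1881 alone at 433 and 449 CPM in both. CRIP2 was at 2.54 and 4.11 against 7.76 and 13.96 CPM. In UAP1L1, CRIP2, DHRS3 and CKB the second TCE-5002 library was well above the first, and their transcripts are between 55.8% and 66.2% GC. With a correction for GC content per library, CKB fell below 2-fold (-0.94) and UAP1L1 stayed past it (-1.73). BEST1, at 7.10 and 4.58 against 21.6 and 31.1 CPM, and KCNQ1, at 5.94 and 5.80 against 18.5 and 23.4 CPM, passed too. Their exons overlap FTH1 and KCNQ1OT1 on the other strand, and counting without strand leaves their counts uncertain. FTH1 itself did not pass and had a log2 fold change of 0.29, the other sign to BEST1. The effect of these overlaps was not tested.

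The remaining lists held few genes that passed. Of 32 interferon and antigen presentation genes 3 passed as higher with namoline (2.42% of all genes), with a median of 0.10. They were OAS3, IFIT3 and IFIT2 (1.18). OAS3, which makes an antiviral messenger, was at 24.4 and 28.6 against 10.1 and 11.01 CPM. IFIT3 was at 2.71 and 1.16 against 0.355 and 0.527 CPM. IFIT3 did not pass without namoline replicate 1 (1.36), which left 1 of the 3, and 5 genes passed without TCE-5002 replicate 1. ISG15 (-0.26) did not pass. Of 15 BCL2 family genes 1 passed, the death effector HRK, with 0 counts in both namoline libraries and 11 and 12 in the TCE-5002 libraries, at least 3.43-fold higher with TCE-5002 against the floor of 3 counts. Of 6 neuronal and neuroendocrine genes measured, SYT4 of synaptic vesicles was higher with namoline at 2.77 and 3.30 against 1.22 and 0.948 CPM, though not without namoline replicate 2 (adjusted p = 0.0886, edgeR), and ENO2, given above, was higher with TCE-5002. The basal marker NGFR passed at the limit of detection, 0.404 and 0.406 against 0 and 0.0527 CPM, and not without either namoline replicate (adjusted p = 0.0726 and 0.0993, edgeR). No gene passed among 28 histone methyltransferases and Polycomb members, 14 heat shock proteins, 11 Notch genes, 17 SRF and YAP targets, 11 actins and tubulins and 30 splicing factors, while leaving out 1 library gave at most 1 such gene per list and direction. By the adjusted p-value alone 6 heat shock genes, with HSPA8 at 0.75, and 4 tubulin genes, with TUBB at 0.71, were higher with namoline. ACTB, at 1431 and 1621 against 1415 and 1637 CPM, did not separate the inhibitors.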

How the data were processed

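The counts are those of 4 C4-2 libraries, 2 with R1881 and namoline and 2 with R1881 and TCE-5002, and 4 further C4-2 libraries (R1881 alone, both inhibitors) entered the fit to share the estimate of spread. The 4 LNCaP libraries were not used here. The authors sequenced polyadenylated RNA in paired ends and, per the labels, trimmed reads with Trim Galore and aligned them to GRCh38 with STAR. The deposited files hold raw counts, whole fragments for each gene, made per the file headers with featureCounts 1.5.0-p1 on Ensembl release 83. No strand option was set and fragments matching several genes were left out by default, so overlapping and near-identical genes are uncertain. Each file listed 60675 genes.

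Genes were kept with filterByExpr, scaled by TMM and tested in R 4.3.3 with the quasi-likelihood F test of edgeR 4.0.16 (limma 3.58.1), and p-values were adjusted by Benjamini-Hochberg over 17702 genes. To pass, a gene needed an adjusted p-value below 0.05 together with a log2 fold change of 1 or more in size. Standard errors were derived by dividing the size of the log2 fold change by the root of F. Levels in CPM came from the deposited counts after scaling by the TMM factors of the 8 C4-2 libraries. On simulated counts, 200 of 16995 genes changed by 2 on the log2 scale were recovered at 100%, with 7 unchanged genes called. The changed genes were drawn above a minimum level, and every group had the same spread. The real genes that passed had a median of 5.10 CPM (higher with namoline) and 2.55 CPM (higher with TCE-5002). The simulation therefore cannot tell how well genes with few counts, smaller changes or unequal replicate spread are recovered. Totals of 14791602 to 20295282 counts limit precision for genes with few counts, and the floor of 3 counts per library covers counting error only.

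Symbols, biotypes and transcript GC came from GENCODE release 29 and a gene name table, with 57055 symbols and biotypes and 56996 GC values. Promoters came from RefSeq (GRCh38.p14).

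The comparison, the 38 gene lists and the 6 marker lists were chosen with earlier results of these data known. Named genes were the inhibitors' targets with KLK3, TMPRSS2 and FOXA1, the 10 protein-coding genes per direction with the largest fold change and the 4 with the highest level, all reaching 10 CPM in the group with more and with libraries that did not overlap, and up to 2 per direction from each list that passed, or else its most abundant member. Other list members were named after their values were seen. Some genes that this rule names are not reported here.

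Alternatives were DESeq2's size factors in edgeR, no filter, a likelihood ratio test, DESeq2 1.42.0, a fit on the 4 libraries, a replicate block, a loess correction for GC with and without that block, and leaving out each of the 4 libraries.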

Additional observations from a re-analysis of the deposited data

How the results depend on the processing

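The number of genes that passed was 876, with 428 higher with namoline and 448 with TCE-5002. It was 890 with the other scaling, 1018 with no filter, 1122 by the likelihood ratio test, 680 by DESeq2, 732 in the fit on 4 libraries and 1034 after GC correction. Leaving out 1 library gave 494 to 1211 genes, 240 to 644 higher with namoline and 254 to 742 with TCE-5002; the lowest came without namoline replicate 2 and moved by over 1.5 times. That fit shared 439 of the 876 in the same direction. The share higher with namoline was 48.9%, but 38.7% without TCE-5002 replicate 1 and 61.3% without replicate 2. These refits leave a group with 1 library, assumed to vary like the others. With a replicate block 943 genes passed, and 1019 with block and GC correction. The labels tie replicate numbers to nothing, and same-numbered namoline and TCE-5002 libraries deviated together with r = 0.49 across genes, with 2 pairs only; the block took no named gene past or below the threshold. Of 68 named genes that passed, 52 did so under each of the 12 alternatives that gave a value. DESeq2 lost RCOR2 and NGFR, and GC correction lost CKB. The number of genes past the adjusted p-value alone depended more on the fit. It was 3215 in the main fit, 1662 in the fit on 4 libraries and 5802 after GC correction. List counts given by the adjusted p-value alone belong to the main fit. After GC correction KDM1A (0.0184), PHF8 (0.0416) and FOXA1 (0.00696) came under an adjusted p-value of 0.05 in edgeR, still below 2-fold. Signs changed only for genes that had not passed. KDM6A was at -0.00407 with the other scaling, -0.00407 by DESeq2, -0.0142 after GC correction and -0.0142 with the block too, and ACTB at -0.00429, -0.00429 and, in the fit on 4 libraries, -0.00157. Leaving out 1 library gave KDM6A -0.0823 to 0.0789, ACTB -0.117 to 0.104, JAG2 -0.277 to 0.508, IARS1 -0.144 to 0.0762, HSP90AA1 -0.063 to 0.426 and HNRNPA2B1 -0.237 to 0.0528. The cause of these shifts was not tested. With 2 libraries per group, spread is estimated largely by sharing it between genes, and genes under a few CPM are measured with few counts.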
